A study of Gallus gallus with 6 samples.

Results

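The genes described here are 6 keratin genes, KRT5, KRT7, KRT13, KRT14, KRT24 and KRT75, measured on chicken gene expression arrays. They were taken as all probe sets whose platform annotation gave exactly 1 gene symbol equal to one of these names, which selected 11 of 38535 probe sets. KRT7, KRT14 and KRT75 had 1 probe set each, KRT13 had 2, and KRT5 and KRT24 had 3 each. The set was selected on earlier results of these same arrays, namely their log2 levels and the v-Myb to N118D differences, in which epithelial genes were already seen to be lower in v-Myb. The levels and group differences of the 6 genes are therefore a description, and no test of them is offered as support.

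The arrays compare cultures of Brown Leghorn chicken neural crest cells that carry either of 2 retroviral forms of v-Myb, with 3 biological replicates each. The first group, called v-Myb here, carried v-Myb-L3,4A-HAER, a v-Myb with a mutated leucine zipper region whose activity is induced by 4-OH-tamoxifen. The other group, called N118D here, carried v-Myb-L3,4A-N118D-HAER, the same protein with a further substitution, N118D, where it binds DNA. Neural tubes from embryos at stages 10 to 13 were cultured with virus, the explant was discarded after 3 days, and the cells that had walked out of it were kept. All 6 cultures received 4-OH-tamoxifen at 200 nM for 4 hours, so no untreated or virus-free array was used, and differences that preceded the treatment cannot be told apart from later ones. The cultures were not sorted, and the labels do not say whether the replicates came from separate embryo pools.

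Keratins are the intermediate filament proteins of epithelial cells. A filament is built from pairs of a type I and a type II keratin, so epithelial cells make members of both types, and the filaments are anchored at desmosomes between cells and at hemidesmosomes on the basement membrane. Neural crest cells leave the neural tube by losing epithelial character, and their usual intermediate filament protein is vimentin. Of the 6 genes, KRT13, KRT14 and KRT24 are type I and KRT5, KRT7 and KRT75 are type II. In the RefSeq annotation of the chicken assembly GRCg7b the 3 type I genes share one chromosome and the 3 type II genes another. KRT13 and KRT24 are neighbouring genes there, and KRT5, KRT6A and KRT75 follow each other, with KRT7 close by.

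Values are log2 levels made by the authors, each step of 1 being a doubling, and every group had n = 3 arrays. Array medians ran from 3.08 to 3.12. A probe set was tested where it reached a log2 level of 4 on at least 3 of the 6 arrays, which 9 of the 11 keratin probe sets and 16526 probe sets in all did. Differences are v-Myb minus N118D, with standard errors and 95% confidence intervals from limma, a linear model fitted to all tested probe sets at once. The number of arrays limits the precision of each difference, and levels of different probe sets are not compared because probes differ in how well they bind.

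All 9 tested keratin probe sets had lower mean levels in v-Myb than in N118D cultures, where 50.8% of all tested probe sets did. The gene differences, taken at the probe set with the highest mean of each gene, ran from -1.49 for KRT14 to -0.66 for KRT7, with a median of -0.74, against a median of -0.0018 over all tested probe sets. The keratin median lay between KRT75 (-0.77) and KRT5 (-0.70), and KRT5 reached the minimum level for testing on only 3 arrays. The keratin median moved both ways when arrays were left out. It was -0.56 without v-Myb replicate 2, -0.55 without N118D replicate 2 and -0.32 without both, the last chosen after seeing the data. It was -1.17 without v-Myb replicate 1, -1.19 without N118D replicate 1 and -1.33 with array weights, a fit that counts arrays by how well they match their group. KRT7, KRT13 and KRT24 had every v-Myb array below every N118D array, on 6 of the 9 probe sets, where 3.05% of all tested probe sets had this pattern. The groups overlapped for KRT5, KRT14 and KRT75. A mean at least 2-fold lower in v-Myb was measured for 5 of the 9 probe sets, against 0.315% of all tested probe sets. They were the probe set of KRT14, all 3 of KRT24 and the dimmer one of KRT13, whose brighter one differed by -0.68. Probe sets of the same gene are not separate observations. In limma 0 of the 9 keratin probe sets and 0 of the 16526 tested, or 0%, passed an adjusted p of 0.05, and 5 and 315 (1.91%) had an unadjusted p under 0.05. Those 5 were both probe sets of KRT13 and all 3 of KRT24. The keratin count of 5 was 2 without v-Myb replicate 3, 3 without N118D replicate 2 or without both arrays numbered 2, and 9 with array weights. As the genes were picked with this contrast in view, these shares are given only for scale.

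The keratin levels also moved between arrays of the same group. v-Myb replicate 2 was the lowest array on 6 of the 9 tested probe sets and N118D replicate 2 the highest on 8. Within a group the standard deviation ran from 0.13 for the brighter KRT13 probe set to 1.76 for KRT14, both in v-Myb. The standard deviation over all 6 arrays, which also takes in the difference between groups, was 0.42 to 1.41 for the keratin probe sets. Its median was 0.16 for all tested probe sets, and it reached 0.5 on 8 of the 9 where 6.72% of all did so. These are bulk RNA values, in which fewer keratin-expressing cells and less keratin RNA per cell cannot be told apart.

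**Figure D1:**
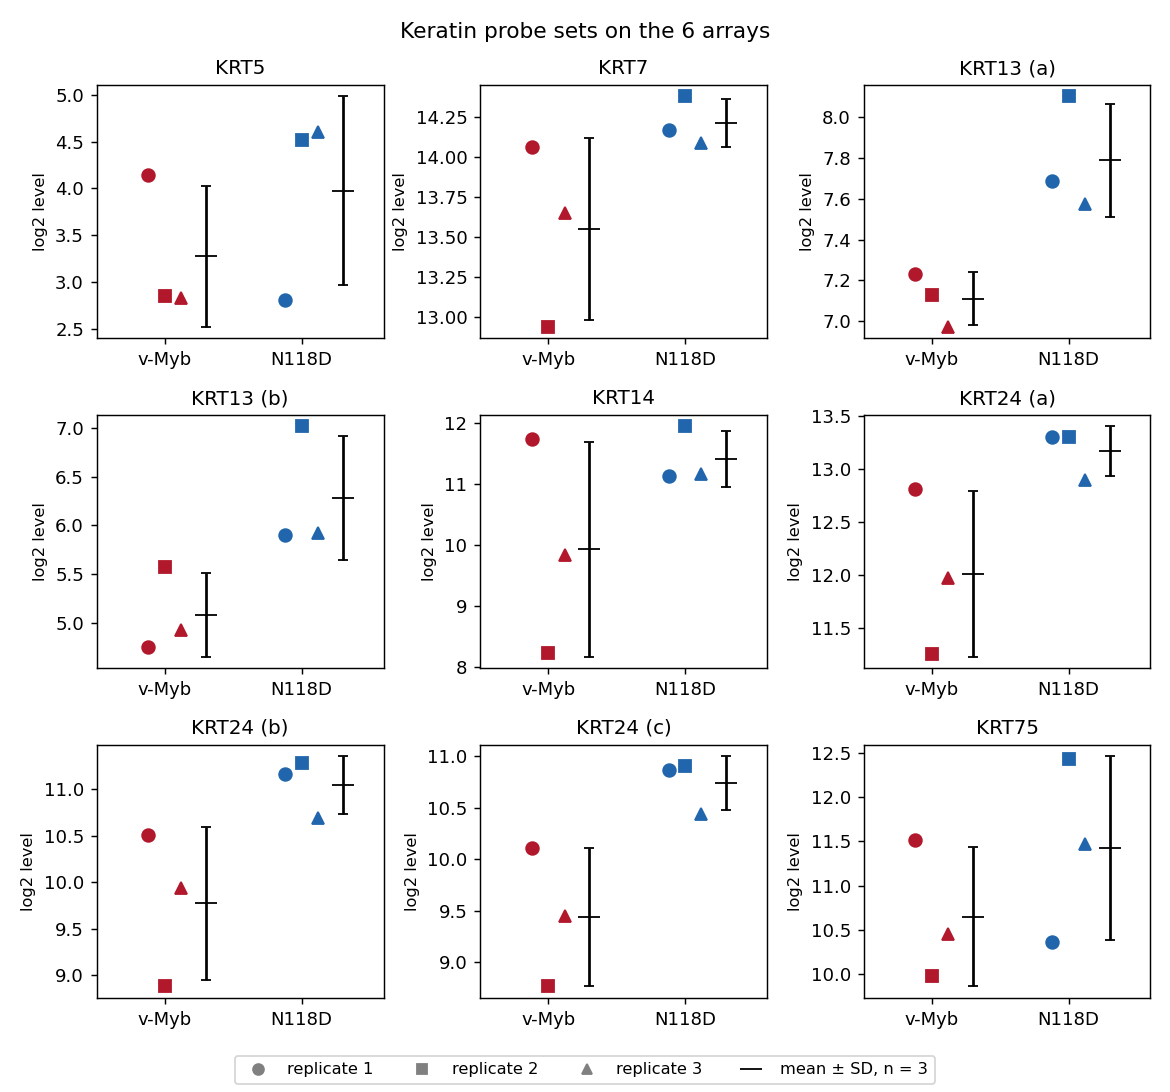
Log2 levels of the 9 tested keratin probe sets on each array, with v-Myb arrays in red, N118D arrays in blue, one symbol per replicate number and bars for mean ± SD (n = 3). Panels have separate axes that do not start at 0, and letters mark several probe sets of a gene in order of mean level. The 3 v-Myb points lie below the 3 N118D points for KRT7, KRT13 and KRT24, and overlap them for KRT5, KRT14 and KRT75.

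Among the type I genes, KRT14 codes for the keratin that pairs with keratin 5 in the basal layer of stratified epithelia. Its probe set stood at 11.75, 8.23 and 9.83 on v-Myb replicates 1, 2 and 3, and at 11.14, 11.95 and 11.17 on N118D replicates 1, 2 and 3. The N118D arrays lay close together, whereas the v-Myb arrays spanned both the second highest and the lowest values of all 6, so the groups overlapped. The group means were 9.93 ± 1.76 and 11.42 ± 0.46 (SD, n = 3 each), with v-Myb minus N118D at -1.49 (standard error 0.87, 95% interval -3.63 to 0.66). Leaving out v-Myb replicate 2 gave -0.63, and leaving out v-Myb replicate 1 gave -2.39. KRT14 had the largest difference and the largest standard error among the 6 genes.

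KRT24, another type I gene, is listed in RefSeq for chicken with keratin-19 as another name. On its brightest probe set the levels were 12.81, 11.25 and 11.96 in v-Myb replicates 1 to 3 and 13.30, 13.30 and 12.90 in N118D replicates 1 to 3. Every v-Myb array was below every N118D array, and v-Myb replicate 1 came within 0.1 of N118D replicate 3. The means were 12.01 ± 0.78 and 13.17 ± 0.24 (SD, n = 3 each), and their difference of -1.16 (standard error 0.39, interval -2.13 to -0.19) is 2.23-fold. The 2 other probe sets of KRT24 differed by -1.27 and -1.30, also without overlap. The 3 probe sets ranked the arrays in the same order (Spearman's rho was 1 for each pair), but they measure 1 gene and are not separate observations. Without v-Myb replicate 2 the differences were -0.78, -0.83 and -0.96.

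KRT13, the third type I gene, codes for a keratin found in mammals in the suprabasal layers of non-cornified stratified epithelia, and RefSeq lists KRT15 as another name of the chicken gene. Levels on the brighter probe set were 7.23, 7.13 and 6.97 in v-Myb and 7.69, 8.10 and 7.58 in N118D replicates 1 to 3. The v-Myb arrays were tightly grouped, and all were below the N118D arrays. The means were 7.11 ± 0.13 and 7.79 ± 0.28 (SD, n = 3 each), which differ by -0.68 (standard error 0.16, interval -1.07 to -0.29). The dimmer probe set read 4.76, 5.57 and 4.93 in v-Myb against 5.90, 7.01 and 5.92 in N118D, a difference of -1.19 (standard error 0.37). There v-Myb replicate 2 was the highest v-Myb array rather than the lowest, unlike for KRT7, KRT14, KRT24 and KRT75. The differences ranged from -0.78 to -0.52 on the brighter and from -1.44 to -0.82 on the dimmer probe set when single arrays were left out.

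Of the type II genes, KRT7 codes for a keratin of simple and glandular epithelia. Its probe set gave 14.06, 12.94 and 13.65 in v-Myb and 14.17, 14.38 and 14.09 in N118D replicates 1 to 3. The groups did not overlap, but v-Myb replicate 1 lay only just below N118D replicate 3. The means were 13.55 ± 0.57 and 14.21 ± 0.15 (SD, n = 3 each), or -0.66 between groups (standard error 0.29, interval -1.37 to 0.04). Without v-Myb replicate 2 the difference was -0.36.

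KRT75, whose product in mammals belongs to the companion layer of the hair follicle, is expressed in feathers in chicken. The levels were 11.51, 9.98 and 10.45 in v-Myb and 10.36, 12.43 and 11.47 in N118D replicates 1 to 3. N118D replicate 1 was here the second lowest array and v-Myb replicate 1 the second highest, so the groups overlapped. The means were 10.65 ± 0.79 and 11.42 ± 1.04 (SD, n = 3 each), and the difference of -0.77 had a standard error of 0.62 and an interval of -2.31 to 0.76. It became -1.20 or -0.44 on leaving out v-Myb replicate 1 or 2, and -1.30 or -0.27 on leaving out N118D replicate 1 or 2. Leaving out both arrays numbered 2, an alternative chosen after seeing the data, turned its sign to 0.069.

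KRT5, the type II partner of keratin 14 in basal cells, was dim on these arrays. On the only probe set that was tested it stood at 4.14, 2.85 and 2.83 in v-Myb and 2.81, 4.51 and 4.60 in N118D replicates 1 to 3. The values fell into 3 arrays above the minimum and 3 well below it, and each group held both kinds. The means were 3.27 ± 0.75 and 3.97 ± 1.01 (SD, n = 3 each), and v-Myb minus N118D gave -0.70 (standard error 0.60, interval -2.19 to 0.79). On leaving out N118D replicate 1, 2 or 3 this became -1.28, -0.43 or -0.39, and on leaving out v-Myb replicate 1 it became -1.14. The 2 other KRT5 probe sets stayed between 2.47 and 2.77 and between 2.55 and 2.67 on all arrays and were not tested.

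**Figure D2:**
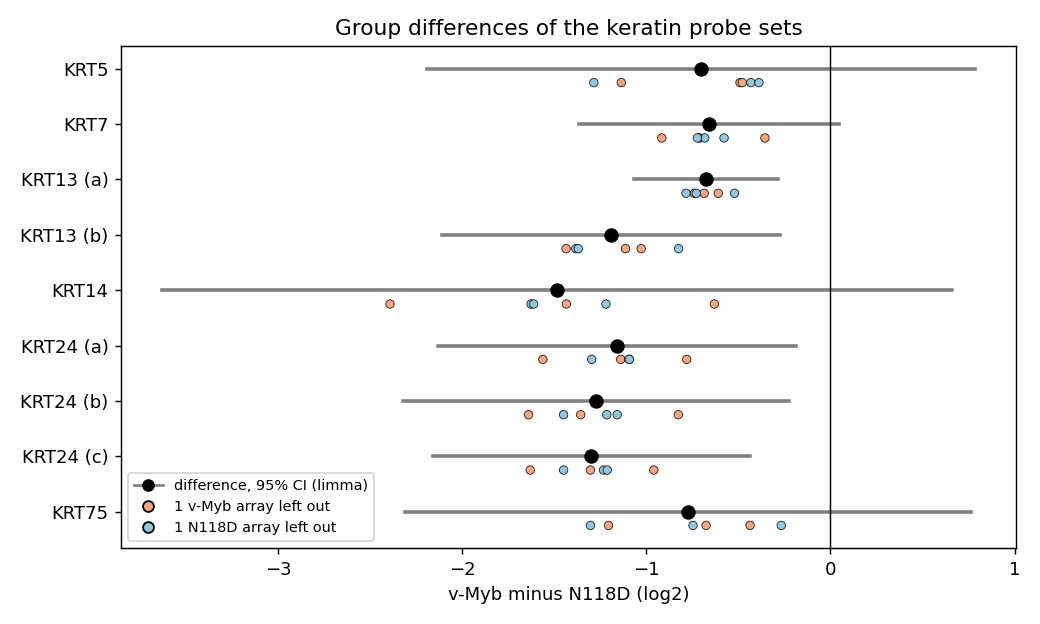
Difference between v-Myb and N118D arrays on the log2 scale for each tested keratin probe set (black points, with 95% confidence intervals from limma as grey lines), and the difference after leaving out 1 array (small points, orange for a v-Myb array and blue for an N118D array). All black points are below 0, the intervals of KRT13 and KRT24 lie below 0, and KRT14 has the widest interval, -3.63 to 0.66.

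The 6 keratin genes varied together across arrays, though not as 1 pattern. Each gene was taken at its tested probe set with the highest mean. Over the 15 pairs of genes the Pearson correlation across the 6 arrays was above 0 in all 15, from 0.55 to 0.98 with a median of 0.73. Spearman's rho ran from 0.26 to 1 with a median of 0.66. On deviations from the group means, which take out the difference between groups, Pearson's r was 0.34 to 0.98 with a median of 0.61. For KRT13 the sign depended on the probe set. On those deviations its dimmer probe set had an r of -0.33 to KRT7, -0.29 to KRT14 and -0.38 to the brightest KRT24 probe set. It had one of 0.10 to KRT5 and 0.27 to KRT75. These values describe 6 arrays whose keratin genes share every culture, and no p is attached to them. The highest r, 0.98, was between KRT7 and KRT24, with KRT14 at 0.97 to KRT7 and 0.94 to KRT24. KRT5 and KRT75 had an r of 0.92. KRT5 reached the minimum of 4 on only 3 arrays, so its r values mostly reflect which arrays those were. With the minimum at 6, which leaves KRT5 out, the median r was 0.77 and the lowest 0.67 over 10 pairs.

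At the brightest probe set of each gene, the lowest values were those of KRT5 with KRT13 and with KRT24, each 0.55. The dimmer KRT13 probe set had lower ones, at 0.32 to KRT14, 0.40 to KRT5, 0.42 to KRT7 and 0.48 to the brightest KRT24 probe set. KRT14 stood at 0.70 with its partner KRT5 and at 0.81 with KRT75. N118D replicate 1 separated the genes: it was above the mean of all arrays for KRT24, KRT13, KRT7 and KRT14 and below it for KRT5 and KRT75, and without it the median r was 0.91. The 2 arrays farthest from the median of the keratin profile, the mean of the 6 centred genes, were v-Myb replicates 2 and 3. Without them r ran from -0.46 to 0.94 with a median of 0.49, and it was above 0 for 13 of 15 pairs, so part of the common pattern rests on those 2 arrays. KRT14 then had an r of only 0.05 to KRT24 and 0.53 to KRT7, whereas KRT7 and KRT24 had one of 0.80.

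**Figure D3:**
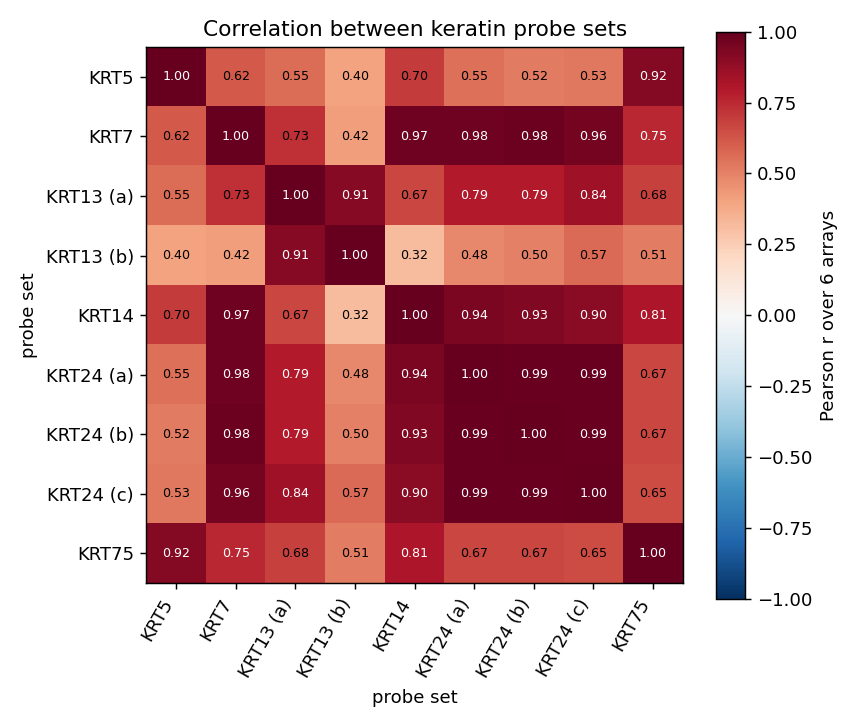
Pearson correlation across the 6 arrays between each pair of the 9 tested keratin probe sets, coloured from -1 (blue) to 1 (red), with letters for several probe sets of a gene in order of mean level. KRT7, KRT14 and the 3 KRT24 probe sets form a block of high values, and KRT5 is closest to KRT75 at 0.92.

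Other keratin genes that could be examined were mostly at background. A further 9 keratin genes had 12 probe sets of their own, and 2 of these, for KRT23 and KRT40, were tested. KRT23, a type I gene beside KRT13, stood at 8.13, 7.01 and 7.87 in v-Myb and 8.75, 8.45 and 7.55 in N118D replicates 1 to 3. Like most of the 6 genes it was lowest on v-Myb replicate 2, but the groups overlapped, with a difference of -0.58 and a standard error of 0.41. KRT40, also type I, read 3.82, 4.32 and 3.84 against 6.74, 3.56 and 5.01. It was highest on N118D replicate 1 and next highest on N118D replicate 3, with a difference of -1.11 and a standard error of 0.78. In limma 0 of these 2 passed the adjusted threshold over all tested probe sets, and 0 had an unadjusted p under 0.05.

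Among the untested members of the family, KRT6A, which lies between KRT5 and KRT75, reached 3.58 on N118D replicate 2 and 2.18 to 2.84 on the other arrays. Probe sets of KRT3, KRT9, KRT71, KRT80 and KRT222 did not exceed 2.76 on any array, and KRT75L2 ranged from 2.67 to 3.82 with its highest value on v-Myb replicate 2. A second KRT23 probe set stayed between 2.45 and 2.48, while the tested one read 7.01 to 8.75. A low reading on a single probe set, here or in the lists below, therefore need not mean that the gene was silent. The 3 keratin probe sets annotated to several genes were not used.

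Genes that hold keratin filaments in place were set beside the keratins from a list of 25 desmosome and hemidesmosome genes, of which 19 had a probe set and 15 were tested. In limma 0 of the 15 passed the adjusted threshold, 13 were lower and 2 higher in v-Myb, and the median difference was -0.49. That median was -0.15 without v-Myb replicate 2. The 4 with the highest mean levels were the laminin receptor subunit ITGA6, the junction proteins PKP4 and JUP and the tetraspanin CD151, with differences of 0.10, -0.04, -0.19 and -0.02. The v-Myb arrays lay below the N118D arrays in 4 of the 15 genes, where 3.05% of all tested probe sets did. They are named after their values were seen: the hemidesmosome integrin ITGB4 (-1.27), the plakin EVPL (-1.46), the desmosomal cadherin DSC1 (-0.49) and PERPB (-0.61), matched to PERP. For DSC1 the highest v-Myb and the lowest N118D array were both at 4.66, and DSC1 and PERPB were lowest on v-Myb replicate 2 by far, at 3.63 and 7.83 against at least 4.61 and 8.90 on the other arrays. The mean of the list correlated with the keratin profile at a Pearson r of 0.89 and a rho of 0.83 over 6 arrays, and at 0.49 without the 2 farthest arrays. The desmosome genes DSG2, PKP1 and PKP3 and the laminin gene LAMB3 stayed below 3.4 on all arrays.

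Of 20 listed epithelial adhesion genes, 12 had a probe set and 7 were tested. Of the 7, 6 were lower and 1 was higher in v-Myb, with a median difference of -0.82 and 0 past the adjusted threshold in limma. The v-Myb arrays lay below the N118D arrays without overlap in 0 of the 7, where 3.05% of all tested probe sets had this pattern. Without v-Myb replicate 2 the median was -0.42. CLDN1 and EPCAM, a tight junction protein and an epithelial surface protein, differed by -0.82 and -1.29, and the epithelial cadherin CDH1 by -1.10, with standard errors of 0.40, 0.57 and 0.53. CDH1 read 10.16, 8.27 and 9.09 in v-Myb and 10.68, 10.49 and 9.66 in N118D replicates 1 to 3, so the groups overlapped and v-Myb replicate 2 was again lowest. SPINT1, a protease inhibitor of epithelia, differed by -0.13. The list mean was 7.65 to 8.77 on the v-Myb arrays and 8.61 to 9.13 on the N118D arrays, and its r to the keratin profile was 0.84, with a rho of 0.60. Without the 2 farthest arrays r was -0.22. The tight junction genes OCLN, CLDN4, MARVELD2, MARVELD3 and TJP3 did not exceed 3.7. Whether the share of epithelial cells in a culture accounts for the keratin levels was not tested.

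Regulators of epithelial genes were less uniform. Of 22 listed, 17 had a probe set and 6 were tested, with 3 lower and 3 higher in v-Myb, a median difference of 0.011 and 0 past the adjusted threshold in limma. The median lay between -0.13 and 0.081 when single arrays were left out. The splicing regulator ESRP2 stood at 8.91, 7.20 and 7.56 in v-Myb and 8.81, 9.18 and 8.67 in N118D replicates 1 to 3, a difference of -0.99 (standard error 0.45). TP63, which directs keratin expression in basal epidermis, was dim, at 4.17, 3.86 and 4.02 against 4.70, 4.29 and 4.20. Its groups did not overlap, and the difference was -0.38 with a standard error of 0.16. DLX5, KLF5 and TFAP2A, transcription factors of which TFAP2A also acts in neural crest, differed by 0.15, -0.13 and 0.21. GRHL1, GRHL3, KLF4, ELF3, EHF and DLX3 stayed below the minimum on at least 5 of 6 arrays and were not tested.

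A list of genes for the cornified envelope, a structure of the outermost epidermal layers, had 3 tested genes of 6 with a probe set. S100A11, ANXA1 and CSTA differed by -0.27, -0.22 and -0.22, with 0 past the adjusted threshold in limma, and the r of the list mean to the keratin profile was 0.30 with a rho of 0.03, and -0.46 without the 2 farthest arrays. SPINK5 and ABCA12 stayed below 4.

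**Figure D4:**
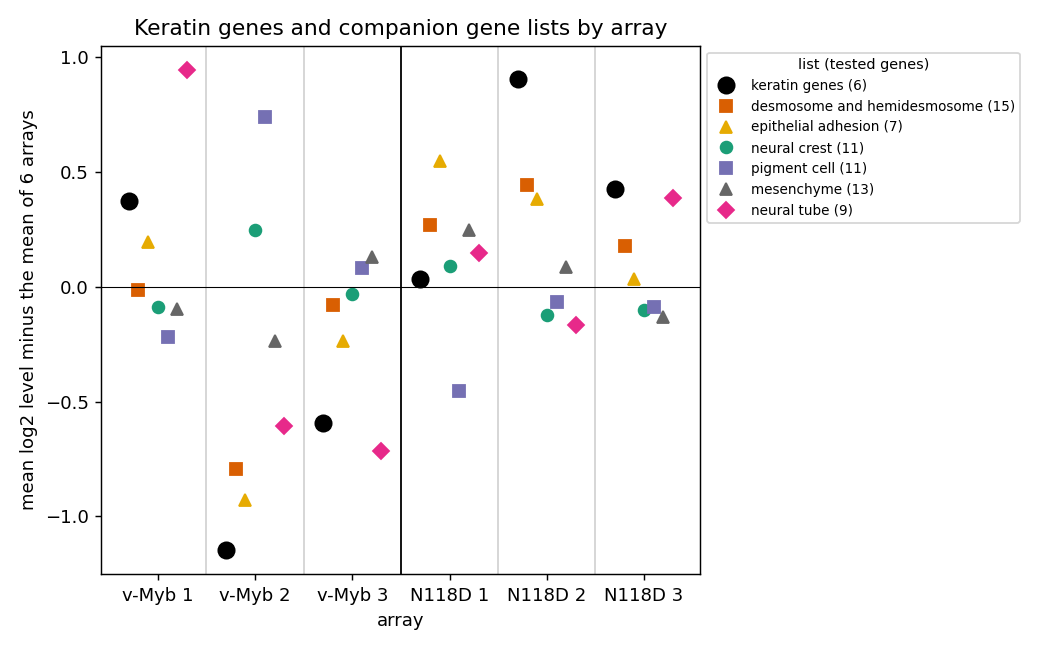
Mean log2 level of each gene list on each array after subtracting each gene's mean over the 6 arrays, with the number of tested genes in brackets and markers spread sideways within an array. The keratin genes run from -1.15 on v-Myb replicate 2 to 0.90 on N118D replicate 2; the desmosome and adhesion lists are also lowest on v-Myb replicate 2, where the neural crest and pigment cell lists are highest.

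Most markers of the labelled cell type were above the minimum, and the mean of the neural crest list moved the other way across arrays. Of 13 neural crest genes with a probe set 11 were tested, and their mean level was 9.81 to 10.15 on the v-Myb and 9.78 to 10.00 on the N118D arrays. Of the 11, 7 were higher and 4 lower in v-Myb, with a median difference of 0.042 that was -0.0079 without v-Myb replicate 2. The 4 with the highest mean levels, SNAI2, TFAP2B, ZEB2 and SOX10, transcription factors of the crest, differed by 0.02, 0.26, 0.09 and 0.36. TFAP2B had every v-Myb array above every N118D array, but v-Myb replicate 1, at 11.667, barely exceeded N118D replicate 3, at 11.664. SOX9 and NGFR stayed below 2.5 on all arrays. The Pearson r of the list mean to the keratin profile was -0.84 with a rho of -0.94. On deviations from the group means r was -0.87, and without the 2 farthest arrays it was -0.83. On the arrays then kept the centred list mean was -0.089 (v-Myb replicate 1) and 0.092, -0.12 and -0.10 (N118D replicates 1 to 3). N118D replicate 1 had the only list mean above 0 and the lowest keratin profile among these arrays. An r without it was not computed. Gene by gene the pattern was weaker: 5 of the 11 had an r below -0.5 and 3 an r above 0, with a median of -0.50. Pigment cell genes, 11 tested of 13, were higher in v-Myb in all 11, with a median difference of 0.45 that was 0.14 without v-Myb replicate 2. DCT, MLANA, EDNRB2 and MITF differed by 0.38, 0.53, 0.37 and 0.33, and PMEL, at 0.45, had every v-Myb array above every N118D array. The share of all tested probe sets with v-Myb above without overlap was not counted. The r of that list to the keratin profile was -0.72 with a rho of -0.43, but 0.86 without the 2 farthest arrays. In limma 0 genes of either list passed the adjusted threshold, and the part of these cell types in the keratin differences was not tested.

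Ranking 847 tested probe sets of 728 other genes, each with a standard deviation over arrays of at least 0.5, by their Pearson correlation with the keratin profile gave the genes whose pattern was most like it. The first 10 were DSP, CALML3, ANXA8L1, PERPA, AVD, SH3YL1, CMBL, ESRP2, A2M and COL17A1, with r from 0.99 down to 0.94 over 6 arrays. In all, 29 probe sets of 23 genes had an r of at least 0.9, and the median r of the ranked probe sets was 0.16. DSP codes for desmoplakin, the protein that ties keratin filaments to desmosomes, and on the ranked probe set it read 7.21, 5.11 and 5.76 in v-Myb and 7.05, 7.93 and 7.41 in N118D replicates 1 to 3. It ordered the arrays exactly as the keratin profile did, and the groups overlapped.

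COL17A1, the transmembrane collagen of hemidesmosomes, stood at 9.12, 6.48 and 8.18 against 9.17, 10.11 and 8.78. ANXA8L1, an annexin, had the widest group difference of the 10, -2.29 with a standard error of 0.88, from levels of 7.15, 4.02 and 4.85 against 6.63, 8.22 and 8.03. AVD, which codes for avidin, the biotin-binding protein of egg white, was the only 1 of the 10 without overlap, at 9.66, 7.79 and 8.72 against 9.87, 10.91 and 10.41. CALML3, a calmodulin-like gene, read 5.53, 2.54 and 3.38 against 4.37, 6.68 and 5.93. SH3YL1, CMBL, A2M, PERPA and ESRP2 differed by -0.77, -0.86, -0.92, -0.96 and -0.99, and the groups overlapped for each.

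At the other end, the 5 genes with the lowest r were LCP1, MATN2, PCSK2, GCNT7 and SELENOP2, from -0.90 to -0.80. LCP1, an actin-bundling gene best known from leukocytes, read 5.23, 6.13 and 5.69 in v-Myb and 4.94, 4.88 and 4.68 in N118D replicates 1 to 3. All v-Myb arrays were above all N118D arrays, and it was highest where the keratins were lowest. Without the 2 farthest arrays its r was -0.17, and that of the other 4 ran from -0.11 to 0.67, while the 10 genes most alike had an r of 0.50 to 0.98. All were chosen by their r over the 6 arrays, at the probe set with the most extreme r of each gene. The arrays kept here are among those 6, so these values are no independent check.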

How the data were processed

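RNA of 6 cultures was labelled by in vitro transcription from 100 ng and hybridised to an Affymetrix-type chicken array, per the labels' protocols. For each probe set the deposited file has a log2 value on every array; GCRMA and Partek 6.4 are named per the submitters' processing notes, without their settings. Background correction of this kind draws dim probe sets towards a floor. Scale was read from the values (0.78 to 15.83). Scanner files were not used here.

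After removal of 96 controls, 16526 of 38439 probe sets were tested by limma 3.58.1 in R 4.3.3 (group as the only term, two-sided, Benjamini-Hochberg over all tested, threshold 0.05). The fit was tested on simulated data with errors independent between probe sets and arrays, unlike the correlated deviations measured here. The 6 keratin genes, the 9 companion lists (151 genes, 118 with a probe set, 2 matched through RefSeq names), tests and alternatives were chosen with earlier results of these data known. The labels call the replicates biological without saying whether they came from separate embryos, so p-values reflect the spread among these 6 cultures.

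A list gene was represented by its tested probe set with the highest mean. Named were all keratin genes, the 4 brightest genes of each list, genes without overlap where a list had at most 3, and the genes most like or opposite to the keratin profile. Desmosome genes without overlap and genes near background were named after their values were seen.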

Additional observations from a re-analysis of the deposited data

How the results depend on the processing

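In limma 0 probe sets passed the adjusted threshold in any of the 14 other fits run, for the keratin genes, the companion lists and all tested probe sets, and the count at an unadjusted p under 0.05 over all tested probe sets, 315 as reported, ranged from 102 without both arrays numbered 2 to 1206 without v-Myb replicate 1. Counts over 1.5 times away were also 734 of 38439 without a filter and 202 of 12772 with the minimum at 6, where the number tested changed, 671 with array weights, 666 with the replicate block, and 565 and 176 on leaving out v-Myb replicate 3 or 2. The median keratin difference of -0.74 was -1.33 with array weights and -0.32 without both arrays numbered 2, and it ranged from -1.19 to -0.55 when single arrays were left out. With the replicate block it was -0.74, which was fixed in advance because both groups hold the same replicate numbers. Same-numbered arrays had deviations that correlated at 0.40, 0.45 and -0.048 for replicates 1, 2 and 3. Replicates 1 and 2 correlated best with their own number, and replicate 3 did not. Arrays of unlike number, v-Myb replicate 3 and N118D replicate 2, correlated at 0.42, more than those of replicate 1 did. The other unlike pairs ran from -0.57 to 0.052. The labels do not say whether same-numbered cultures were linked, and the main fit did not take them as pairs. The median correlation between keratin genes was 0.49 without the 2 arrays farthest from the median, and it ranged from 0.65 to 0.91 when single arrays were left out.

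Among list medians, the epithelial regulators changed sign to -0.13 with the minimum at 6 and to -0.056 without both arrays numbered 2, and single arrays took it from -0.13 to 0.081. For the other intermediate filaments it was 0.0059 with array weights and -0.15 to 0.080 over single arrays. The neural crest median was -0.056 without both arrays numbered 2 and -0.0079 to 0.15 over single arrays, and the neural tube median was -0.51 to 0.069. The KRT75 difference was 0.069 without both arrays numbered 2. That setting, the mean of probe sets per gene for the keratins (-0.85) and Spearman's rho were chosen after seeing the data.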

Other observations

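The tested intermediate filament genes other than keratins differed by -0.33 to 0.11 between the groups. VIM, the vimentin gene, stayed between 15.63 and 15.72 on all 6 arrays. These levels are near 15.83, the highest value of all, and whether VIM could read higher was not tested. The lamin gene LMNB1 differed by -0.13. The neurofilament gene NEFM was at 12.42, 10.28 and 9.95 in v-Myb and 11.18, 11.02 and 11.44 in N118D replicates 1 to 3, so v-Myb replicate 1 was highest. Its difference of -0.33 had a wide interval, -1.93 to 1.27. NES, the nestin gene of neural progenitors, differed by 0.06. Of 7 tested genes 4 were lower and 3 higher in v-Myb, with a median of -0.06 and 0 past the adjusted threshold in limma. Leaving out single arrays took that median from -0.15 (N118D replicate 2) to 0.080 (v-Myb replicate 3). The Pearson r of the list mean to the keratin profile was 0.71 with a rho of 0.71 over 6 arrays, and -0.045 without the 2 farthest arrays. GFAP and LMNA stayed below 2.4.

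Neural tube genes, 9 tested, had a median difference of -0.27, which ranged from -0.51 without v-Myb replicate 1 to 0.069 without v-Myb replicate 2, with 5 lower and 4 higher in v-Myb and 0 past the adjusted threshold in limma. FABP7, SOX3, ELAVL4 and DCX differed by -0.32, -0.33, -0.27 and 0.08. Their mean was highest on v-Myb replicate 1, at 9.62 against 7.96 to 9.06 on the other arrays, and its r to the keratin profile was 0.63 with a rho of 0.54, and -0.39 without the 2 farthest arrays. Mesenchymal genes were lower in v-Myb in 12 of 13 tested cases, with a median of -0.13 and 0 past that threshold. The median was nearest to 0, at -0.066, without v-Myb replicate 2 and farthest, at -0.25, without v-Myb replicate 3. FN1, COL1A1, COL1A2 and COL5A1 differed by -0.12, -0.07, -0.19 and -0.23, and PDGFRB, without overlap, by -0.28. The Pearson r of that list to the keratin profile was 0.27 with a rho of 0.09, and -0.28 without the 2 farthest arrays.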
